A study of Mus musculus with 6 samples.

Results

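The 10 genes described here are commonly used to recognize reactive astrocytes, and they were examined in astrocytes from quinpirole-treated mice. They were *Lcn2*, *Serpina3n*, *Steap4*, *S1pr3*, *Timp1*, *Cd44*, *Osmr*, *Cp*, *Emp1* and *Cd109*, and they were taken by their symbols. All 10 were among the 17193 Ensembl gene identifiers of the tables, and all 10 had a mean of at least 1 FPKM (fragments scaled by transcript length and by the size of the library) over the 6 libraries, so that none was lost to the filter on low values. By the labels, the astrocytes came from the brains of wild-type C57BL/6 mice aged 3 months, which received either quinpirole, an agonist of the dopamine receptor DRD2, or a control treatment called mock, with 3 libraries in each group. The cells had been isolated with anti-ACSA-2 microbeads, which bind a surface antigen of astrocytes encoded by *Atp1b2*. The dose and duration of quinpirole for these mice, and whether a library held 1 mouse or several, are not given in the sources used here, so the p-values below measure the spread between libraries. The mature astrocyte gene *Slc1a2* was low (at most 8.55 FPKM) and *Acta2* and *Vim* were high (at least 2518 and 2597 FPKM) in all 6 libraries. Whether the cells were kept in culture before RNA was taken is not given for these libraries, and all levels below are read with that limit.

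Reactive astrocytes are astrocytes that have changed their gene expression after injury, infection or inflammation. Some of their genes rise after many kinds of insult and are called pan-reactive. Others were first described after neuroinflammation (A1 genes) or after ischemia (A2 genes). Of the 10 genes, 8 belong to the pan-reactive class, and 2, *Emp1* and *Cd109*, belong to the A2 class. Cytokines of the interleukin-6 family, including oncostatin M, act on astrocytes through receptors that signal to the transcription factor STAT3 and are known inducers of this state.

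The 2 groups were compared with limma on log2(FPKM + 1), fitted over all 12255 genes that passed the filter. Of the 10 reactive astrocyte genes, 1 rose and 1 fell at a Benjamini-Hochberg adjusted p under 0.05. *Timp1* rose by 36.6% and *Osmr* fell by 11.9% after quinpirole. Over all tested genes 10.9% were past the same threshold, 5.74% higher and 5.18% lower, so the share among the 10 genes was of the order of the background. At an unadjusted p under 0.05 there were 3 of the 10 (*Timp1*, *Osmr* and *Emp1*), against 31.3% of all tested genes. The means of 7 genes were lower after quinpirole and those of 3 were higher. The median log2 fold change of the 10 genes was -0.08, compared with 0.02 for all tested genes. *Emp1* had the largest difference of the 10 in log2 fold change, but it came from 2 of the 3 quinpirole libraries and was not past the threshold.

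**Figure D1:**
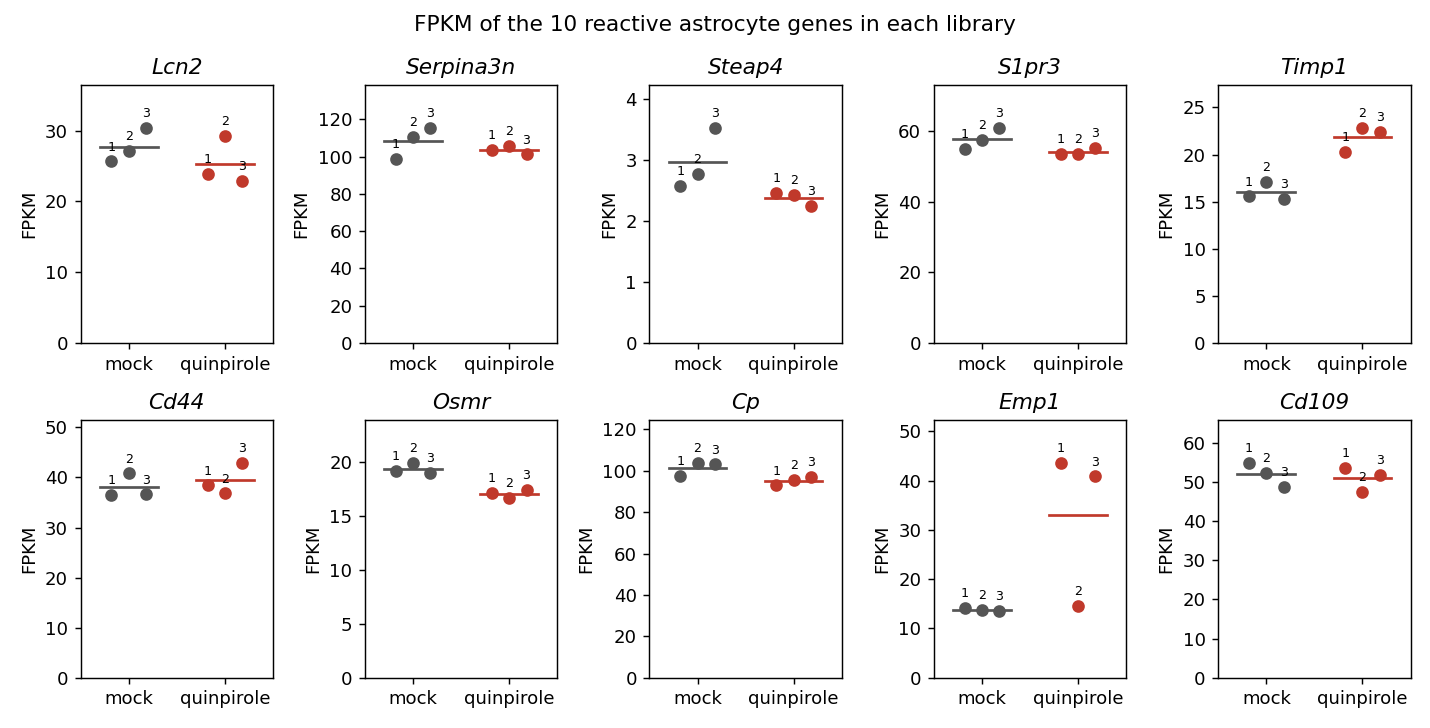
FPKM (linear axis from 0, one axis per gene) of the 10 reactive astrocyte genes in each mock (gray) and quinpirole (red) library. Points are libraries with their replicate number and lines are group means. *Timp1* lies higher and *Osmr* lower in all 3 quinpirole libraries, and *Emp1* is near 40 FPKM in quinpirole libraries 1 and 3 only.

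The start regions of *Timp1*, *Osmr* and *Emp1*, the 3 genes with the smallest p, are shown so that their sequences can be compared. RefSeq windows on GRCm38.p6 were given for 9 of the 10 genes, 11 windows in all, and *Cd109* had none. Each sequence below runs 5′ to 3′ on the strand of its gene, from 250 bases before the annotated start to 10 bases after it. Capitals mark matches, on either strand, to TTCNNNGAA (the STAT motif), TGANTCA (the AP-1 motif) or TGACNNNGC (the core of the motif bound by Nrf2, the factor the study followed). The windows lie at chrX:20869916-20870175 on the plus strand for *Timp1*, at chr15:6874304-6874563 on the minus strand for *Osmr*, and at chr6:135362681-135362940 and chr6:135367243-135367502 on the plus strand for the upstream and downstream starts of *Emp1*.
Timp1: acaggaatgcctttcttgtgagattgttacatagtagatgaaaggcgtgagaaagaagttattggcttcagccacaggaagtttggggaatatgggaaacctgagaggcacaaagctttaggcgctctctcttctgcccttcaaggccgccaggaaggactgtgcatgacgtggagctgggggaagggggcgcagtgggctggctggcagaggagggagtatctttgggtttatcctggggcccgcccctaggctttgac
Osmr: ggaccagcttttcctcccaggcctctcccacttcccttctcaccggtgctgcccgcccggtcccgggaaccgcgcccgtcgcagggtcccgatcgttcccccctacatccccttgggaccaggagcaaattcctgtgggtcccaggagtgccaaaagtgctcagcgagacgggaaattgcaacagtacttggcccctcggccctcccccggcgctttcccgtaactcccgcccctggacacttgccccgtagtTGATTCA
Emp1 upstream start: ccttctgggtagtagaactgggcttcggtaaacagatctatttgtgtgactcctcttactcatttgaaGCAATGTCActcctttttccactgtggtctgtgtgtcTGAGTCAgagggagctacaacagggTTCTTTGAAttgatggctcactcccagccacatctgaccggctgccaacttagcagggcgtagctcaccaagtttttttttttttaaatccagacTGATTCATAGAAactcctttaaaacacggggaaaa
Emp1 downstream start: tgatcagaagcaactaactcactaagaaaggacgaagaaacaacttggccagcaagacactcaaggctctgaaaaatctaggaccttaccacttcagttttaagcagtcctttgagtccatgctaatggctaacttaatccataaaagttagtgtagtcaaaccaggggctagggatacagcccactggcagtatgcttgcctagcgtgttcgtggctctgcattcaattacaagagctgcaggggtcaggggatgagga

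The upstream window of *Emp1* held 2 STAT matches, 2 AP-1 matches and 1 Nrf2 core match, and the last STAT match overlapped the last AP-1 match. Its downstream window held 0 matches to any of the 3 motifs. The *Osmr* window held 1 AP-1 match, 3 bases past the start. The *Timp1* window held 0 matches. Of the other windows over the full 300 bases, that of *Steap4* held 1 STAT match (TTCCCGGAA) and the upstream window of *Cp* held 1 AP-1 match, whereas those of *Lcn2*, *Serpina3n*, *S1pr3* and *Cd44* held 0. Among all 32851 RefSeq windows of this length, 8.3% held the STAT motif, 7.81% the AP-1 motif and 12.4% the Nrf2 core. These are matches of letters and not measured binding sites.

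*Timp1* (ENSMUSG00000001131, chromosome X, 20870166 to 20874735, GRCm38), a secreted inhibitor of matrix metalloproteinases, was the gene of the 10 with the smallest p. Its values were 15.6, 17.1 and 15.3 FPKM in mock libraries 1 to 3. They were 20.3, 22.8 and 22.4 FPKM in quinpirole libraries 1 to 3. The groups did not overlap, and the lowest quinpirole library lay 3.15 FPKM above the highest mock library. The means were 16.0 ± 1.00 FPKM (SD, n = 3) and 21.8 ± 1.36 FPKM (SD, n = 3). The log2 fold change was 0.43 (standard error 0.06, 95% confidence interval 0.28 to 0.58, adjusted p = 0.0225 from limma). The gene lies within the body of *Syn1* but shares no annotated exonic base with it, and none of the words of 50 bases of its longest transcript occurs in a transcript of another gene. With 883 bases in its longest transcript it was the shortest of the 10 genes.

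The call for *Timp1* depended on the processing. After each library had been corrected for the relation between expression and exonic length, its log2 fold change was 0.29 (adjusted p = 0.0644 from limma). It was past the threshold without mock library 3. It was not past it without mock library 1, mock library 2, quinpirole library 1, quinpirole library 2 or quinpirole library 3. Its log2 fold changes ran from 0.40 to 0.48 over the 6 fits. Calls over all tested genes fell in the same fits, from 1339 to 1215 without mock library 3 and to between 3 and 210 otherwise. Over all alternatives the adjusted p of *Timp1* from limma lay between 0.0163 and 0.139. Summed levels of 4 marker lists of other cells also differed between all libraries of the groups. The microglia and macrophage list summed to between 281 and 290 FPKM in the mock group and to between 291 and 299 FPKM in the quinpirole group. The neuron list summed to between 17.9 and 20.0 FPKM and to between 20.9 and 23.9 FPKM, nearly all of it *Tubb3*, since the other 6 of its 7 genes had means under 1 FPKM. The pericyte and smooth muscle list, nearly all of it *Acta2*, summed to between 2547 and 2716 FPKM and to between 2732 and 2902 FPKM. *Pdgfrb*, another gene of that list, went the other way (log2 fold change -0.30, adjusted p = 0.0227 from limma). The fibroblast and leptomeningeal list was lower after quinpirole, with 114 to 129 FPKM in the mock group and 90.3 to 102 FPKM in the quinpirole group, most of it *Col1a1*. The part of such cells in the *Timp1* result was not tested, and in bulk libraries a different number of cells of a type cannot be told apart from a different amount of RNA per cell.

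The other metalloproteinase inhibitors did not all follow *Timp1*. *Timp4* rose from values of 27.2, 26.2 and 27.2 FPKM in the mock libraries to 30.0, 32.5 and 31.1 FPKM in the quinpirole libraries (a log2 difference of 0.21, standard error 0.04, adjusted p = 0.0329 from limma). Of the 6 fits that left out 1 library, *Timp4* was past the threshold only in that without mock library 3 (adjusted p from 0.0488 to 0.116 over the 6). *Timp2*, the most abundant inhibitor of the family here, had between 326 and 342 FPKM in the mock group and between 338 and 353 FPKM in the quinpirole group, and *Timp3* had between 180 and 190 FPKM and between 174 and 186 FPKM. Neither difference was past the threshold (adjusted p = 0.409 and 0.469 from limma), and for both the groups overlapped. Among the proteases, the membrane-bound *Mmp14* and *Mmp15* and the gelatinase *Mmp2* were tested and none was past the threshold. *Mmp15* had 17.4 to 18.1 FPKM in the mock group and 14.9 to 17.1 FPKM in the quinpirole group, without overlap. Its log2 fold change was -0.18 (unadjusted p = 0.0199, adjusted p = 0.0943 from limma). For *Mmp14* and *Mmp2* the groups overlapped. The gelatinase *Mmp9* was under the filter with at most 0.0921 FPKM. Of this list of 7 genes, 6 were tested, 1 was higher and 0 were lower.

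The 5 genes whose pattern over the 6 libraries was most like that of *Timp1* were *Lmo2*, *Derl2*, *Ube2d3*, *Ilkap* and *Zbtb22*. Likeness was measured as the root mean square difference of log2(FPKM + 1) after each gene had been centered on its mean, and it was 0.043 for *Lmo2* and 0.066 for *Zbtb22*, the fifth. *Lmo2* had 5.73, 5.82 and 5.18 FPKM in the mock libraries and 7.40, 8.18 and 8.44 FPKM in the quinpirole libraries. *Derl2* had 13.6, 15.4 and 13.9 FPKM and then 19.0, 19.3 and 19.1 FPKM. In both genes all quinpirole libraries were above all mock libraries, as in *Timp1*. Both were picked for their likeness over these same libraries, so the shared separation is no separate result.

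*Osmr* (ENSMUSG00000022146, chromosome 15, 6813577 to 6874969), the specific subunit of the oncostatin M receptor, was lower after quinpirole. Its values were 19.2, 20.0 and 19.0 FPKM in mock libraries 1 to 3, and 17.1, 16.7 and 17.4 FPKM in quinpirole libraries 1 to 3. All quinpirole libraries lay below all mock libraries, by at least 1.61 FPKM, and the spread within each group was small. The means were 19.4 ± 0.492 FPKM (SD, n = 3) and 17.1 ± 0.358 FPKM (SD, n = 3). *Osmr* fell by 0.17 on the log2 scale (standard error 0.04, 95% confidence interval -0.27 to -0.07, adjusted p = 0.0448 from limma). After the length correction its difference was -0.03 on the log2 scale (adjusted p = 0.615 by limma). That correction used the exonic length of *Osmr*, 12113 bases, whereas its longest transcript has 5491 bases. The call for *Osmr* was lost when any single one of the 6 libraries was left out, with log2 fold changes from -0.19 to -0.15. In these fits 3 to 1215 of all tested genes were past the threshold, compared with 1339 with all libraries. Over all alternatives the adjusted p of *Osmr* from limma lay between 0.0362 and 0.661.

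Genes of oncostatin M receptor signalling were read beside *Osmr*. Of 8 genes, 7 were tested and 0 were past the threshold (limma), with 1 at an unadjusted p under 0.05. That gene was *Il6st*, the signalling subunit with which the receptor pairs. *Il6st* had 49.5, 35.2 and 46.3 FPKM in the mock libraries and 27.6, 39.3 and 26.7 FPKM in the quinpirole libraries (log2 fold change -0.48, 95% confidence interval -0.88 to -0.08, adjusted p = 0.104 from limma). Quinpirole libraries 1 and 3 were below all mock libraries, whereas quinpirole library 2 was within the mock range. The ligand *Osm* was under the filter, with 0.431 to 0.718 FPKM in the mock group and 0.503 to 0.647 FPKM in the quinpirole group. *Stat3* ranged from 58.8 to 76.5 FPKM and from 55.4 to 70.2 FPKM, and *Socs3*, a feedback inhibitor induced by STAT3, from 26.9 to 27.7 FPKM and from 25.9 to 28.6 FPKM. The groups overlapped for both genes, with 95% confidence intervals of the log2 fold change from -0.09 to 0.13 for *Socs3* and from -0.38 to 0.19 for *Stat3*.

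*Emp1* (ENSMUSG00000030208, chromosome 6, 135362545 to 135383173), a small membrane protein with several membrane-spanning segments, had the largest log2 fold change and the largest spread of the 10 genes. Its mock values were 14.1, 13.8 and 13.5 FPKM. Its quinpirole values were 43.6 FPKM in library 1, 14.5 FPKM in library 2 and 40.8 FPKM in library 3. Quinpirole library 2 was thus 1.06 times the mock mean, while libraries 1 and 3 were both at least 2.81 times the highest of the other 4 libraries. The log2 fold change was 1.06 (standard error 0.36, 95% confidence interval 0.21 to 1.91, adjusted p = 0.0978 from limma). The SD of log2(FPKM + 1) was 0.03 in the mock group and 0.85 in the quinpirole group, where it ranked 29 among 12255 genes, against a median over all tested genes of 0.07 in either group.

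Leaving out quinpirole library 2 gave *Emp1* a log2 difference of 1.55 (adjusted p = 0.000451 by limma), and its adjusted p over all alternatives lay between 0.000451 and 0.222. Without quinpirole library 1 the log2 fold change was 0.79, and without quinpirole library 3 it was 0.83. A rule for this pattern was set after the values of *Emp1* were seen, so that *Emp1* met it by construction. It asked for values in quinpirole libraries 1 and 3 that were both at least 2 times those of every other library. Only 2 of the 12255 tested genes (0.0163%), *Emp1* among them, met it. The other gene, *Tubb4b-ps1*, a tubulin pseudogene named here after its values were seen, had 25.0 and 9.74 FPKM in these libraries and between 2.33 and 3.07 FPKM in the rest. *Emp1* has 6 annotated transcripts of 580 to 2911 bases, among them retained introns, and none of the words of 50 bases of its longest transcript occurs in another gene. The deposited value is a single number per gene, so the transcript behind the difference cannot be told. The endothelial list summed to 51.2, 50.6 and 54.9 FPKM in quinpirole libraries 1 to 3 and to between 51.9 and 53.3 FPKM in the mock group. Most of this sum was *Slco1a4*, and 4 of the 7 genes, *Pecam1*, *Cdh5*, *Ly6c1* and *Tek*, had means under 1 FPKM. The part of endothelial cells in the *Emp1* result was not tested.

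The relatives of *Emp1* varied less between libraries. *Emp2* had 44.9 to 48.2 FPKM in the mock group and 48.8 to 51.9 FPKM in the quinpirole group, and *Emp3* had 41.0 to 46.9 FPKM and 44.7 to 47.5 FPKM. *Pmp22*, a myelin protein gene of the same family, had 139, 138 and 142 FPKM in the mock libraries and 158, 136 and 159 FPKM in the quinpirole libraries, so that libraries 1 and 3 were the higher ones here too. None of the 3 was past the threshold (adjusted p = 0.201, 0.334 and 0.269 from limma).

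*Cd109* (ENSMUSG00000046186, chromosome 9, 78615546 to 78716253), a surface protein that binds transforming growth factor β with its receptor, was the other A2 gene. It had 54.9, 52.3 and 48.7 FPKM in the mock libraries and 53.5, 47.5 and 51.8 FPKM in the quinpirole libraries. The groups overlapped, the log2 fold change was -0.03 (95% confidence interval -0.17 to 0.11, adjusted p = 0.777 from limma), and its sign changed under 4 alternatives. Among 6 ligands and receptors of transforming growth factor β, 0 were past the threshold (limma), with 1 at an unadjusted p under 0.05. This was *Tgfbr2*, a receptor subunit, with 28.9, 28.8 and 27.9 FPKM in the mock libraries and 26.2, 26.7 and 26.6 FPKM in the quinpirole libraries (adjusted p = 0.114 from limma).

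The secreted proteins *Lcn2* and *Serpina3n* are the markers most often used for strongly reactive astrocytes. *Lcn2* (ENSMUSG00000026822, chromosome 2, 32384633 to 32388252), a lipocalin that binds iron-carrying siderophores, had 25.7, 27.2 and 30.4 FPKM in the mock libraries and 23.9, 29.3 and 22.9 FPKM in the quinpirole libraries. Quinpirole libraries 1 and 3 were below all mock libraries and library 2 was inside their range, and the log2 fold change was -0.13 (95% confidence interval -0.36 to 0.10, adjusted p = 0.409 from limma). *Lcn2* is also a gene of neutrophils, whose markers *S100a8*, *Camp* and *Mmp8* summed to at most 0.185 FPKM in any library, while *S100a9*, *Ngp* and *Ly6g* had no row. *Slc22a17*, a receptor for the lipocalin, had between 44.2 and 49.5 FPKM in the mock group and between 45.4 and 48.3 FPKM in the quinpirole group.

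*Serpina3n* (ENSMUSG00000021091, chromosome 12, 104406729 to 104414329), a secreted inhibitor of serine proteases, had the highest level of the 10 genes in every library. Its values were 98.6, 111 and 115 FPKM in the mock libraries and 104, 106 and 101 FPKM in the quinpirole libraries. All quinpirole values lay inside the mock range, with a log2 fold change of -0.06 (95% confidence interval -0.20 to 0.08, adjusted p = 0.51 from limma). The gene stands in a cluster of related genes, and 6.9% of the words of 50 bases in its transcript occur in other genes, foremost *Serpina3e-ps*, *Serpina3g* and *Serpina3c*, so a small part of its reads could have been split.

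*Steap4* and *Cp* act on metal ions. *Steap4* (ENSMUSG00000012428, chromosome 5, 7960457 to 7982213), a reductase of iron and copper, was the least expressed of the 10 genes in every library. It had 2.59, 2.78 and 3.53 FPKM in the mock libraries and 2.47, 2.43 and 2.26 FPKM in the quinpirole libraries, and all quinpirole libraries lay below all mock libraries. Its quinpirole mean was 0.804 times its mock mean, with a log2 fold change of -0.22 (95% confidence interval -0.45 to 0.01, adjusted p = 0.166 from limma), and the added 1 understates changes at this level. *Cp* (ENSMUSG00000003617, chromosome 3, 19957054 to 20009145), the gene of the copper-carrying ferroxidase ceruloplasmin, had 97.3, 104 and 103 FPKM in the mock libraries and 93.0, 95.5 and 97.0 FPKM in the quinpirole libraries. The groups did not overlap, although the highest quinpirole library lay close to the lowest mock library, and the log2 fold change was -0.09 (95% confidence interval -0.18 to 0.00, adjusted p = 0.16 from limma). *Cp* was past the threshold with quantile normalization (a log2 difference of -0.17, adjusted p = 0.0475 from limma) and had a log2 fold change near 0 after the length correction. Its exons share 108 bases with *Hps3*, so reads there cannot be assigned with certainty. Of 8 other genes of iron and siderophore handling, including the STEAP relatives *Steap1*, *Steap2* and *Steap3*, the exporter *Slc40a1* and the importer *Slc11a2*, all 8 were tested and 0 were past the threshold (limma), with 0 at an unadjusted p under 0.05.

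*S1pr3* and *Cd44* are receptors at the cell surface. *S1pr3* (ENSMUSG00000067586, chromosome 13, 51408639 to 51422797), a receptor for sphingosine 1-phosphate, had 54.8, 57.3 and 60.8 FPKM in the mock libraries and 53.5, 53.4 and 55.1 FPKM in the quinpirole libraries. The groups overlapped in 1 quinpirole library, and the log2 fold change was -0.09 (95% confidence interval -0.20 to 0.01, adjusted p = 0.212 from limma). Its exons share 45 bases with the gene *Gm32834*, and reads there cannot be assigned with certainty. The other detected receptors, *S1pr1* and *S1pr2*, had 20.3 to 20.5 FPKM and 13.6 to 14.6 FPKM in the mock group and 19.9 to 22.8 FPKM and 14.0 to 15.4 FPKM in the quinpirole group, so *S1pr3* was the highest receptor of its family in every library, while *S1pr4* and *S1pr5* were under the filter. Of this list of 7 genes, 5 were tested and 0 were past the threshold (limma), with 0 at an unadjusted p under 0.05.

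*Cd44* (ENSMUSG00000005087, chromosome 2, 102811141 to 102901665), the main receptor for hyaluronan, had 36.6, 40.8 and 36.6 FPKM in the mock libraries and 38.4, 36.8 and 43.0 FPKM in the quinpirole libraries. The groups overlapped, and the log2 fold change was 0.05 (95% confidence interval -0.11 to 0.21, adjusted p = 0.658 from limma). The hyaluronan synthases *Has1*, *Has2* and *Has3* were all under the filter. The ligand *Spp1* (osteopontin) had 205 to 283 FPKM in the mock group and 201 to 235 FPKM in the quinpirole group. The linkers to the cytoskeleton *Ezr*, *Rdx* and *Msn* had adjusted p = 0.132, 0.208 and 0.956 from limma. *Ezr* was higher in all quinpirole libraries (unadjusted p = 0.0359 from limma) and *Rdx* lower in all. The groups overlapped for *Msn* and *Spp1*. Over all tested genes 31.3% were at an unadjusted p under 0.05, and the groups did not overlap for 36.9%.

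**Figure D2:**
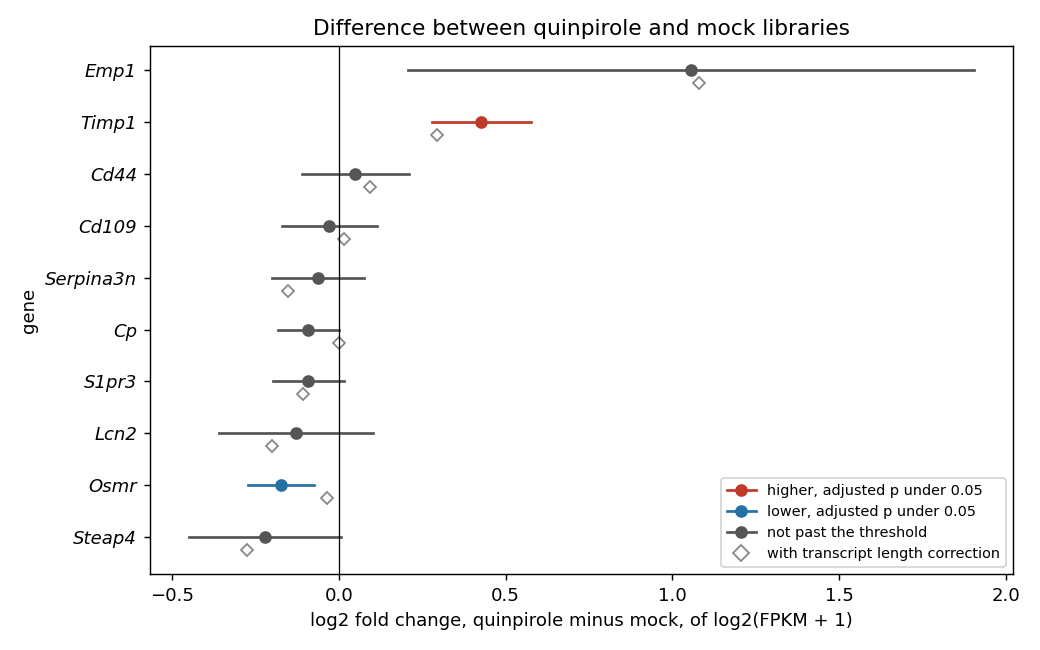
Log2 fold change (quinpirole minus mock, of log2(FPKM + 1), horizontal axis) of each of the 10 genes, with its 95% confidence interval from limma, colored by the adjusted p. Open diamonds, labeled as transcript length correction, are the values after the correction for exonic length, at 0.29 for *Timp1* and -0.03 for *Osmr*. The interval of *Emp1* runs from 0.21 to 1.91.

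The groups did not overlap for 5 of the 10 genes, 2 of them higher (*Timp1* and *Emp1*) and 3 lower (*Osmr*, *Steap4* and *Cp*) after quinpirole. Such a separation was seen in 36.9% of all tested genes, with 20.0% higher and 16.9% lower. For the 5 genes with overlapping groups, the largest difference on the log2 scale that the confidence intervals allowed was a drop of 0.36 for *Lcn2* and a rise of 0.21 for *Cd44*. Within the groups, the SD of log2(FPKM + 1) ran from 0.03 to 0.18 in the mock libraries and from 0.02 to 0.18 in the quinpirole libraries when *Emp1* was set aside.

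The levels of the 10 genes, which FPKM allows to be compared per length, covered a wide range. By mock means the order was *Serpina3n* (108 FPKM), *Cp* (101), *S1pr3* (57.7), *Cd109* (52.0), *Cd44* (38.0), *Lcn2* (27.7), *Osmr* (19.4), *Timp1* (16.0), *Emp1* (13.8) and *Steap4* (2.97). The libraries of the mock group overlapped between *Serpina3n* and *Cp* and between *S1pr3* and *Cd109*, and they were apart for every other pair of neighbors. In the quinpirole group *Timp1* (21.8 FPKM) stood above *Osmr* (17.1 FPKM) with no overlap, the reverse of the mock order, and *Emp1* lay above *Lcn2* in libraries 1 and 3 only. Among all tested genes, the mock level of *Serpina3n* was at percentile 95.2, that of *Timp1* at 60.9 and that of *Steap4* at 15.0. The estimated number of fragments behind one value ran from 159 to 284 for *Steap4* and from 344 to 514 for *Timp1*, and reached 13090 for *Cp*.

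**Figure D3:**
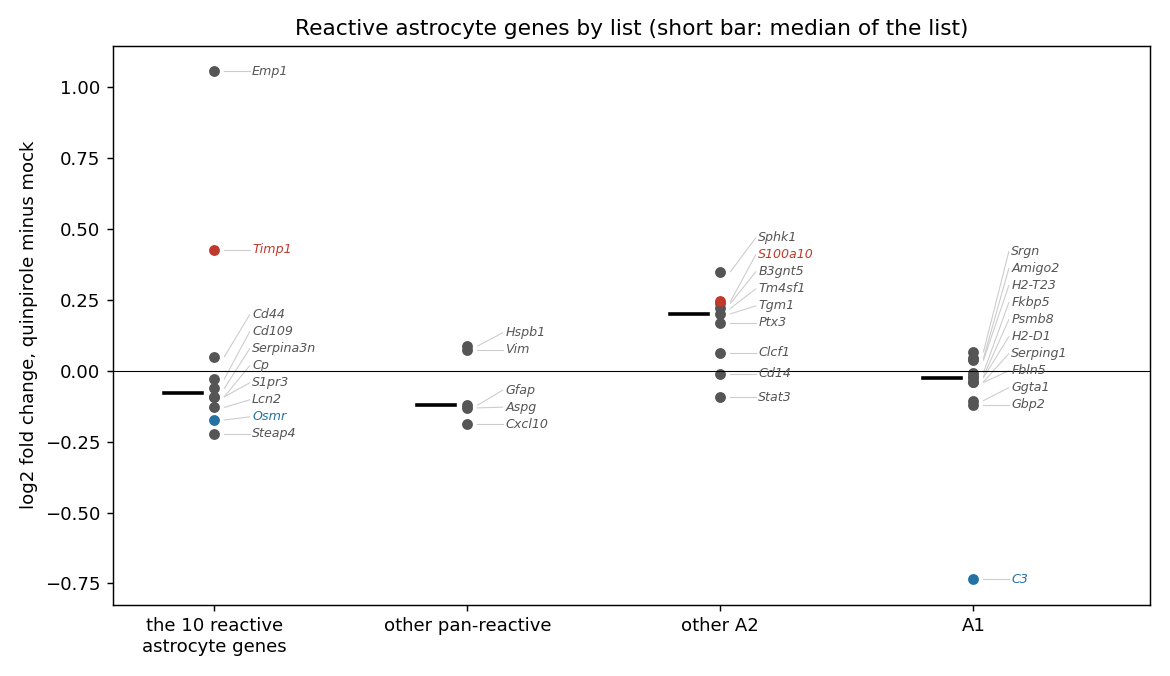
Log2 fold change (quinpirole minus mock, vertical axis) of every tested gene of 4 lists of reactive astrocyte genes, with calls at adjusted p under 0.05 in red (higher) or blue (lower) and the median of each list as a short bar. Of the called genes, 1 stands in the list of other A2 genes (*S100a10*) and 1 in the A1 list (*C3*).

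The 10 genes were set beside the rest of the pan-reactive, A2 and A1 genes. None of the 5 other pan-reactive genes was past the threshold (limma), with 1, the chemokine gene *Cxcl10*, at an unadjusted p under 0.05 (log2 fold change -0.19). *Gfap*, the intermediate filament gene that defines reactive astrocytes in tissue, had 489, 536 and 560 FPKM in the mock libraries and 490, 482 and 482 FPKM in the quinpirole libraries (adjusted p = 0.163 from limma), and *Vim* had 2597 to 2920 FPKM and 2770 to 3006 FPKM. Together with the 8 pan-reactive genes above, 1 of 13 rose and 1 of 13 fell, beside 5.74% and 5.18% of all tested genes.

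Of the 11 other A2 genes 9 were tested, and 1 was higher. *S100a10*, a binding partner of annexin A2, rose from 167, 159 and 172 FPKM in the mock libraries to 193, 205 and 192 FPKM in the quinpirole libraries (log2 fold change 0.24, standard error 0.05, adjusted p = 0.0258 from limma). It too was past the threshold only without mock library 3 when any single library was left out (adjusted p from 0.0314 to 0.0981). The groups did not overlap for 4 of the 9 genes, and in all 4 the quinpirole libraries were the higher ones, where 36.9% of all tested genes did not overlap and 20.0% were higher in this way. The share called, 1 of 9, was near the 10.9% of all tested genes. Beside *S100a10* these were *Ptx3*, a secreted pentraxin (adjusted p = 0.053), *Tm4sf1*, a membrane protein (adjusted p = 0.0507), and *B3gnt5*, a glycosyltransferase gene (adjusted p = 0.10), all from limma. The median log2 fold change of the 9 genes was 0.20. After the length correction 0 of them were past the threshold (limma), with 4 at an unadjusted p under 0.05. Of the 13 A1 genes 11 were tested, and 1 was lower, the complement gene *C3*, with 84.2, 91.2 and 86.5 FPKM in the mock libraries and 51.8, 51.7 and 52.6 FPKM in the quinpirole libraries, and this call held without any 1 of the 6 libraries (adjusted p from 0.00516 to 0.0248). The median of the A1 list was -0.02. Differences between the lists were not tested.

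All 8 astrocyte markers were above the filter, and they summed to between 1429 and 1593 FPKM in the mock group and to between 1430 and 1457 FPKM in the quinpirole group. Their levels were uneven. The glutamate transporter *Slc1a2*, which is high in mature astrocytes, had 7.47 to 8.55 FPKM in the mock group and 5.15 to 6.37 FPKM in the quinpirole group and fell (adjusted p = 0.0297 from limma), as did *Atp1b2* (adjusted p = 0.0382). With single libraries left out, *Slc1a2* was past the threshold only without mock library 3 and *Atp1b2* in none of the 6 fits (adjusted p from 0.0354 to 0.104 and from 0.0601 to 0.125). The smooth muscle actin gene *Acta2* had 2518 to 2690 FPKM and 2710 to 2881 FPKM. Of the other smooth muscle and pericyte markers, *Kcnj8*, *Abcc9*, *Rgs5* and *Myh11* had means under 1 FPKM. *Pdgfrb* had 25.0 to 27.2 FPKM in the mock group and 20.7 to 21.6 FPKM in the quinpirole group. It fell (log2 fold change -0.30, adjusted p = 0.0227 from limma). No marker of the 10 lists that had a row was at 0 in all libraries. The depth of a library, estimated from the steps of the lowest FPKM values, was between 22300000 and 27600000 fragments, with the lowest estimate in quinpirole library 3.

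**Figure D4:**
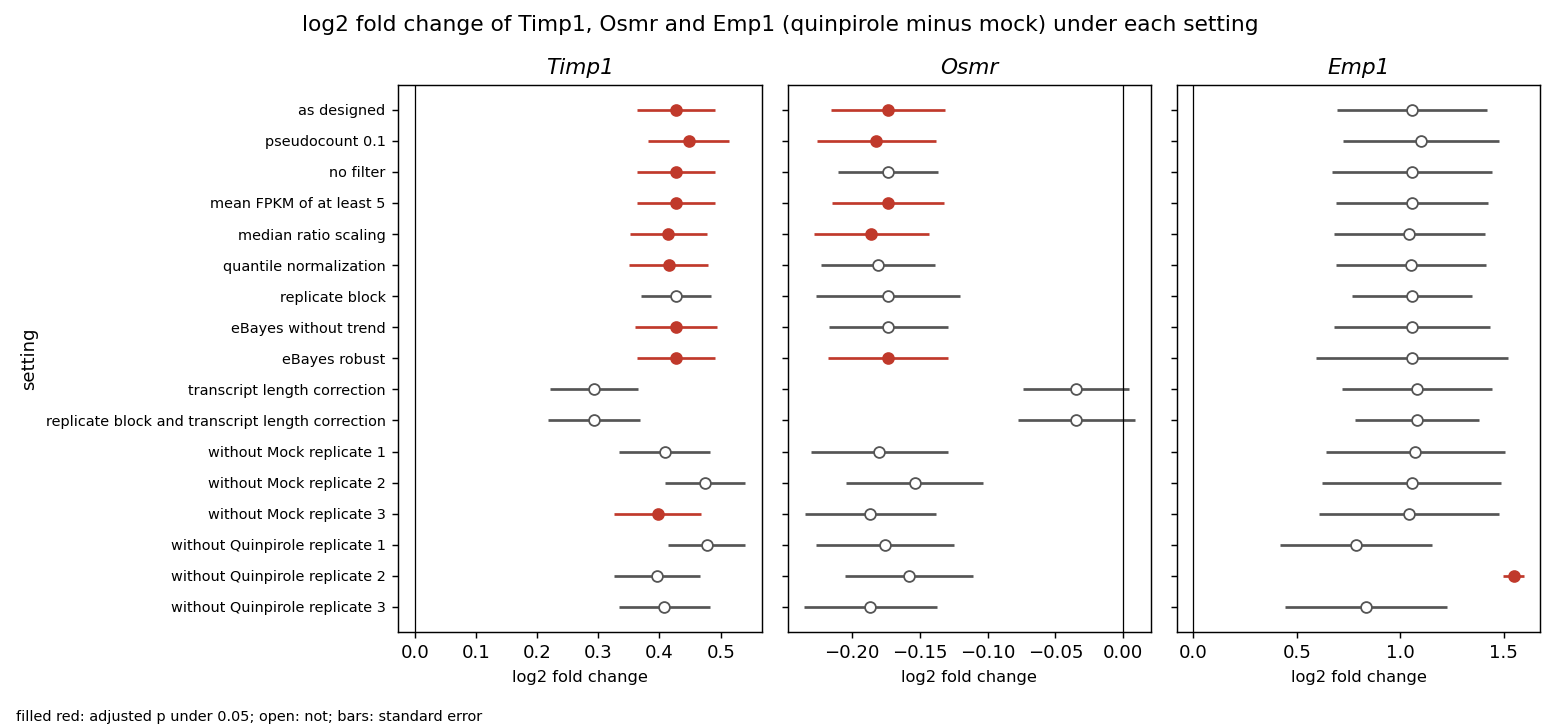
Log2 fold change (quinpirole minus mock, horizontal axes, which differ between panels) of *Timp1*, *Osmr* and *Emp1* under each setting of the processing, with the standard error from limma as bars. Filled red points had an adjusted p under 0.05, which holds for *Emp1* only without quinpirole library 2.

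The plot of the settings shows that the direction of these 3 genes held throughout, while their calls did not. Over 16 alternatives *Timp1* was past the threshold in 8, *Osmr* in 4 and *Emp1* in 1. *Cp* was past it in 1 of 16, and *Lcn2*, *Serpina3n*, *S1pr3*, *Cd44* and *Cd109* in 0 of 16, and *Steap4* in 0 of 15.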

How the data were processed

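Astrocytes isolated from mouse brain were profiled by poly-A RNA sequencing in 3 mock and 3 quinpirole libraries (paired-end reads, a kit that does not keep the strand). Per the labels, the authors aligned reads to GRCm38 with TopHat2 and deposited 1 table of FPKM values per library, and the program that computed FPKM is not given in the sources used here. Groups and replicate numbers came from the labels. FPKM is not a count, so log2(FPKM + 1) was fitted with limma 3.58.1 in R 4.3.3 (eBayes with trend, two-sided) for the 12255 of 17193 genes with a mean of at least 1 FPKM, and p-values were Benjamini-Hochberg adjusted over all of them at a threshold of 0.05. A fold change on this scale understates that of low genes.

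Symbols, positions and lengths were taken from GENCODE M21 (17090 identifiers matched) and start-site windows from RefSeq. The length correction subtracted a loess curve (span 0.3) of each library's deviations on log2 exonic length, available for 12223 tested genes. Exonic length counts the bases in exons of any annotated transcript of a gene, so it can exceed the longest transcript. It was 12113 bases for *Osmr* and 9566 for *Cp*, whose longest transcripts have 5491 and 4564 bases. For *Timp1* it was 888 bases against 883. Depth was estimated from 1254 genes with 1 transcript of at least 2000 bases, whose low values should be whole multiples of what 1 fragment is worth. Between 60.2% and 68.9% of them lay within 0.1 of a whole number (20% by chance), so the fragment numbers are estimates and whole reads were not recovered. The fit was tested on simulated data with independent noise, where 200 genes were changed by 1 on the log2 scale. It recovered 191 of the 200 with 9 false calls among 12255 genes. Smaller changes, such as those of *Timp1* and *Osmr*, were not simulated, so their recovery is not known.

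All 10 genes, the fixed lists of their pathway partners, the other pan-reactive, A2 and A1 genes, the cell type markers, and the 5 genes most like the one with the smallest p were named. The genes and lists were chosen with earlier results of these data known. Alternatives changed the pseudocount (0.1), the filter (none, or a mean of at least 5 FPKM), the scaling, the variance model, the replicate block, the length correction and the libraries included.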

Additional observations from a re-analysis of the deposited data

How the results depend on the processing

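Of 159 values of the 10 genes under the alternatives, 132 had the same sign and the same call as in the report. *Timp1* had an adjusted p above 0.05 with the length correction (log2 fold change 0.29, adjusted p = 0.0644) and lay between 0.40 and 0.48 without single libraries (adjusted p 0.0317 to 0.0905). *Osmr* was above it with no filter (-0.17, adjusted p = 0.0555), quantile normalization (-0.18, adjusted p = 0.0501), no variance trend (-0.17, adjusted p = 0.0607) and the length correction (-0.034, adjusted p = 0.615), and between -0.19 and -0.15 without single libraries (adjusted p 0.0576 to 0.146). *Cp* passed with quantile normalization (-0.17, adjusted p = 0.0475) and *Emp1* ranged from 0.79 to 1.55 without single libraries, passing without quinpirole library 2. The log2 fold change of *Cd109* turned to 0.016 with the length correction and ranged from -0.075 to 0.020 without single libraries (0.011 without mock library 1 and 0.020 without quinpirole library 2), and that of *Cd44* ranged from -0.013 (without quinpirole library 3) to 0.10. The cause was not tested.

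Of the 10 genes 2 passed as designed, 1 with no filter, 1 without the variance trend, 0 with the length correction (5 at an unadjusted p under 0.05) and 0 to 1 without single libraries. Over all genes 1339 passed as designed (704 higher, 635 lower), 633 with no filter, 783 with quantile normalization (283 higher, 500 lower), 714 without the trend (293 higher, 421 lower) and 519 with the length correction. Without single libraries the count was 6, 3 and 1215 (mock libraries 1, 2 and 3) and 11, 25 and 210 (quinpirole libraries 1, 2 and 3), with 2891 to 3920 genes at an unadjusted p under 0.05. Of the other A2 genes 3 passed with a mean of at least 5 FPKM, 3 with robust variance estimation, 0 with quantile normalization, 0 with the length correction and 0 to 1 without single libraries. Of the other pan-reactive genes 1 passed with quantile normalization. Of the pathway partners 0 passed with quantile normalization, 0 without the trend, 2 with the length correction and 0 to 1 without single libraries.

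With the replicate number as a block, *Timp1* had 0.43 (adjusted p = 0.0802), *Osmr* -0.17 (adjusted p = 0.118), and 0 of the 10 genes (3 at an unadjusted p under 0.05), 2 of all genes (3308 unadjusted), 0 other A2 genes and 0 pathway partners passed. With the replicate block and the length correction together, *Timp1* had 0.29 (adjusted p = 0.139), *Osmr* -0.034 (adjusted p = 0.661) and *Cd109* 0.016, and 0 of the 10 genes, 0 of all genes (2734 unadjusted), 0 A1 genes, 0 other A2 genes and 0 pathway partners passed. Whether the replicate numbers pair libraries is not given in the sources used here. Same-numbered libraries had correlations of their deviations from the group means of 0.03, -0.07 and -0.10. With 3 libraries a group, these cannot show that there was no pairing. *Steap4* was not tested with a mean of at least 5 FPKM. With 3 libraries a group and no deposited counts, it is not known how often small differences of the size of *Osmr* would be detected.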
